A study of Gallus gallus with 12 samples.

Results

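The hairpins described here are the chicken precursors of the miR-17, miR-20 and miR-106 miRNAs and of their cluster neighbours miR-18 and miR-19. A rule on the names took every hairpin with one of these family numbers and at most 1 letter after it, which gave 8 of the 850 hairpins in the chicken-aligned table: gga-mir-17, gga-mir-18a, gga-mir-18b, gga-mir-19a, gga-mir-19b, gga-mir-20a, gga-mir-20b and gga-mir-106. No measured value entered the rule. The same numbers, here with a copy number allowed after the letter, picked 10 of 1913 hairpins in a second table. In it the same libraries had been aligned to human hairpins. All 8 chicken hairpins averaged at least 10 normalized reads over the libraries, the minimum set for testing, as did 8 of the 10 human ones (hsa-mir-18b and hsa-mir-106b were below it). The 8 human hairpins tested hold hsa-mir-19b-1 and hsa-mir-19b-2 but not hsa-mir-18b, so they are not the exact counterparts of the 8 chicken ones.

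Small RNA libraries were made from chicken embryo cells, 3 in each of 4 groups. Embryos received a GFP vector and a construct by electroporation and grew to Hamburger-Hamilton stages 4 to 5 (gastrulation), and cells were then sorted by GFP. The groups were GFP-positive and GFP-negative cells labelled as having chicken miR-302 knocked down, for which the protocol names constructs that delete it, and GFP-positive and GFP-negative cells labelled as overexpressing miR-302, for which the protocol names the human miRNA. Both GFP-negative groups carry the label of their arm, and they serve here as the comparison for the GFP-positive cells of that arm. The promoter of the constructs, the number of embryos pooled and a control construct without miR-302 activity are not given in the labels, so electroporation and the construct cannot be told apart within an arm. Nothing states that replicates came from separate embryos, so the p values below measure the spread between these libraries, which may be technical.

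MicroRNAs of these families are cut from 2 long precursor transcripts, each of which carries several hairpins in a row. The miR-17-92 cluster, known in mammals for promoting proliferation and for its part in tumours, lies on chicken chromosome 1, and its relative, which holds miR-106 and miR-363, lies on chromosome 4. In the RefSeq gene table of the GRCg7b assembly all 8 hairpins matched a gene. On chromosome 1 the order by position was gga-mir-92-1, gga-mir-19b, gga-mir-20a, gga-mir-19a, gga-mir-18a and gga-mir-17, with no other microRNA gene among them. On chromosome 4 it was gga-mir-363, gga-mir-92-2, gga-mir-19b-2, gga-mir-20b, gga-mir-18b and gga-mir-106. The mature miRNAs form 3 seed groups, each with hairpins in both clusters. Among the 8, gga-mir-19a and gga-mir-19b both lie on chromosome 1, so the miR-19 sums below hold no chromosome 4 hairpin. The miR-17, miR-20 and miR-106 group has a seed closely related to that of miR-302 and, in mammalian cells, represses inhibitors of the cell cycle. The miR-18 group acts on TGF-beta pathway messages, again as known from mammals. Members of a seed group have near-identical mature sequences and can draw on common reads, whose assignment between hairpins is not stated. No mature arm had a value above 0 in the deposited tables, so every level below is that of a hairpin.

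Depth sets how far each comparison can go. Hairpins held 49276 to 82211 reads in the 3 knockdown GFP-positive libraries, against 277633 to 435716 in the knockdown GFP-negative ones. The overexpression GFP-positive libraries held 3856, 1292 and 1789 reads, against 7546, 52653 and 277637 in the overexpression GFP-negative ones. A single read therefore stood for 6.68, 24.4 and 15.9 normalized reads in overexpression GFP-positive replicates 1, 2 and 3, and a hairpin with no read there could have been present at up to 20.1, 73.1 and 47.6 normalized reads (3 reads, counting error only). The miR-302 and miR-367 hairpins are markers of the early embryo, and the arms are labelled by miR-302 alone. Their sum averaged 15789 ± 3384 normalized reads in knockdown GFP-positive and 19937 ± 2222 in knockdown GFP-negative libraries. It averaged 5816 ± 2339 in overexpression GFP-positive and 11400 ± 5990 in overexpression GFP-negative libraries (SD, n = 3 each). A like sum in the human-aligned table was taken over 18 hairpins, where the chicken-aligned one held 5. It was 3560 ± 1268 in overexpression GFP-positive and 5075 ± 3333 in overexpression GFP-negative libraries (SD, n = 3 each). On average neither sum was higher in the cells labelled as overexpressing miR-302. Single human hairpins differed in direction. Of the 5 tested in the overexpression arm, 3 had limma log2 differences above 0, hsa-mir-302d (1.39, SE 0.48, adjusted p 0.0739, unadjusted p 0.0152), hsa-mir-302a (1.08, SE 0.52, adjusted p 0.169) and hsa-mir-302e (1.47, SE 0.70, adjusted p 0.169), and none passed the adjusted threshold. hsa-mir-302d averaged 472 ± 226 normalized reads in overexpression GFP-positive and 189 ± 122.5 in overexpression GFP-negative libraries (SD, n = 3 each), with overlap. hsa-mir-302b, the most abundant of the 5, averaged 2364 ± 867 in overexpression GFP-positive and 4247 ± 2835 in overexpression GFP-negative libraries (SD, n = 3 each). Directions given for that arm are those of libraries with that label.

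In both arms the 8 hairpins together were lower in GFP-positive than in GFP-negative cells. Their summed level was 357, 299 and 397 normalized reads in knockdown GFP-positive replicates 1 to 3, against 593, 533 and 549 in the knockdown GFP-negative ones. It was 314, 244 and 301 in overexpression GFP-positive replicates, against 508, 482 and 661 in the overexpression GFP-negative ones. The GFP-positive and GFP-negative libraries did not overlap in either arm. The mean log2 difference was -0.68 (SE 0.13) in the knockdown arm, a ratio of 0.625, and -0.94 (SE 0.18) in the overexpression arm, a ratio of 0.522. Sums over chosen hairpins were not tested. Fewer cells that carry a hairpin and less of it per cell cannot be told apart in sorted bulk RNA.

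Read as a share of each library, the groups were separate in the knockdown arm, and in the overexpression arm GFP-positive libraries were lower within each pair but overlapped across pairs. The hairpins took 0.828 ± 0.0612% of all hairpin reads in knockdown GFP-positive and 1.25 ± 0.0325% in knockdown GFP-negative libraries, and the Wilson 95% intervals of the 3 GFP-positive libraries all ended below those of the GFP-negative ones. They took 1.02 ± 0.226% in overexpression GFP-positive and 1.502 ± 0.335% in overexpression GFP-negative libraries (SD, n = 3 in each group), and here libraries of different replicate numbers overlapped, since overexpression GFP-positive replicate 1 had 1.22% (interval 0.918% to 1.62%, 47 of 3856 reads) and overexpression GFP-negative replicate 2 had 1.12% (1.03% to 1.21%). Within each replicate number, which was taken to pair the libraries, the share was lower in GFP-positive cells. It was 1.22%, 0.774% and 1.062% in overexpression GFP-positive replicates 1 to 3, against 1.72%, 1.12% and 1.67% in the overexpression GFP-negative ones. The GFP-positive shares rest on 47, 10 and 19 reads. The Wilson intervals overlapped within every pair, in replicate 3 with 0.681% to 1.65% against 1.62% to 1.71%. The mean log2 difference was -0.56, with an SE of 0.28 unpaired and 0.046 over the 3 pairs. That last SE is the spread of 3 ratios and does not measure the counting error of each.

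**Figure D1:**
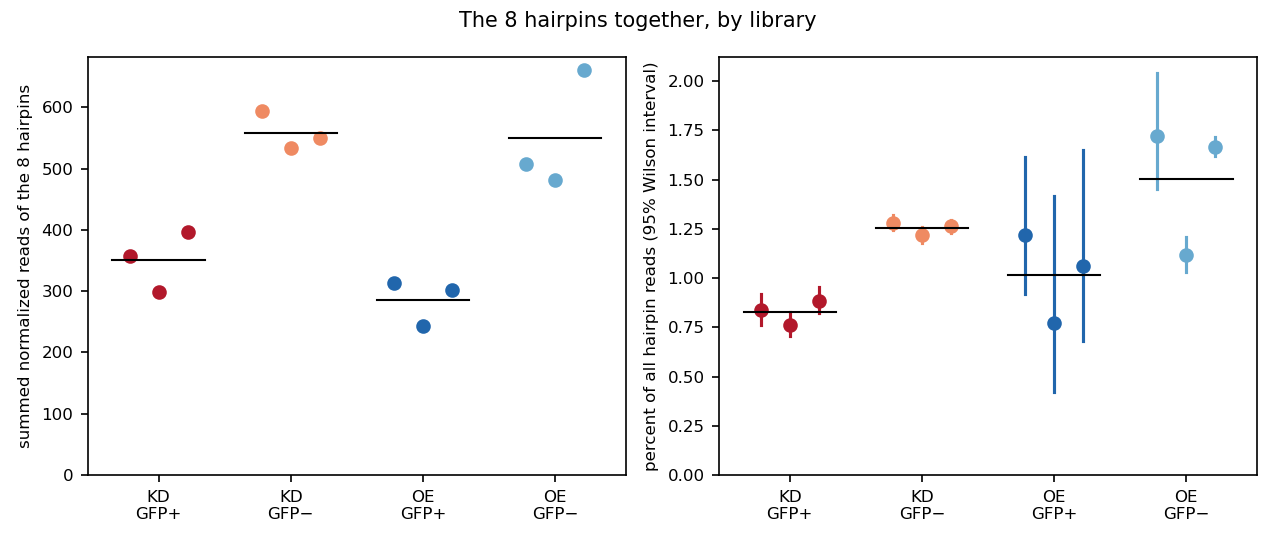
Summed level of the 8 hairpins in normalized reads (left) and their share of all hairpin reads in percent with Wilson 95% intervals (right), by group, with 1 point per library and the group mean as a line. KD is the knockdown and OE the overexpression arm. The summed level of every GFP-positive library lies below every GFP-negative library of its arm, while the shares of the overexpression arm overlap across replicate numbers.

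Marker hairpins of other tissues differed by GFP in the same libraries. The 13 let-7 hairpins, typical of differentiated cells, had 11 above 0 in each group. They summed to 3276 to 4161 normalized reads in knockdown GFP-positive and 308 to 692 in knockdown GFP-negative libraries, and to 1243 to 1855 in overexpression GFP-positive and 148 to 451.3 in overexpression GFP-negative libraries. Of the 5 hairpins of miR-122, the main miRNA of liver, 2 were above 0 in each group and 3 were at 0. They summed to 2422 to 3196 in knockdown GFP-positive and 127 to 487 in knockdown GFP-negative libraries, and to 853 to 1951 in overexpression GFP-positive and 54.7 to 126.1 in overexpression GFP-negative libraries. Both sums were therefore higher in every GFP-positive library than in any GFP-negative library of its arm. Single hairpins did not all share this. In the human-aligned table hsa-let-7i (limma -1.83, SE 0.58, adjusted p 0.0487) and hsa-let-7f-2 (-0.16, SE 1.59, adjusted p 0.966) were below 0 in the overexpression arm. The other let-7 hairpins tested there were above 0.

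The other lists held less. In the overexpression GFP-positive libraries they rest on few reads, since 1 read stood for 6.68, 24.4 and 15.9 normalized reads in replicates 1 to 3. The lowest gut and endoderm sum in that group was 3 reads, and 2 of the 3 hairpins of that list were above 0. The lowest muscle and heart sum in that group was 1 read. The 3 gut and endoderm hairpins summed to 40.9 to 75.3 normalized reads in knockdown GFP-positive and 5.89 to 9.52 in knockdown GFP-negative libraries, and to 20.1 to 121.9 in overexpression GFP-positive and 8.19 to 13.9 in overexpression GFP-negative libraries. The 10 neural hairpins, 5 to 7 of them above 0 in a group, summed to 192.3 to 296 in knockdown GFP-positive and 122.1 to 165 in knockdown GFP-negative libraries, and to 147 to 222 in overexpression GFP-positive and 107 to 141 in overexpression GFP-negative libraries. Single neural hairpins of the human-aligned table differed in the overexpression arm. There hsa-mir-124-1 (limma -0.59, SE 1.13, adjusted p 0.756) and hsa-mir-124-2 (-0.40, SE 1.17, adjusted p 0.856) were below 0. hsa-mir-124-3 and the tested hsa-mir-9 hairpins were above 0. Sums of the blood and muscle lists were lower in the GFP-positive than in the GFP-negative libraries of each arm. Single muscle hairpins of the human-aligned table differed in the knockdown arm. There hsa-mir-206 was above 0 (limma 1.05, SE 0.96, adjusted p 0.616), while hsa-mir-1-1 (-1.91, SE 1.23, adjusted p 0.417) and hsa-mir-1-2 (-2.57, SE 1.32, adjusted p 0.298) were below 0. The 5 endothelium and blood hairpins summed to 56.9 to 93.6 in knockdown GFP-positive and 107 to 168 in knockdown GFP-negative libraries, and to 33.4 to 97.5 in overexpression GFP-positive and 315 to 471 in overexpression GFP-negative libraries. The 9 muscle and heart hairpins, 5 to 9 of them above 0 in a group, summed to 71.0 to 165 in knockdown GFP-positive and 250 to 688 in knockdown GFP-negative libraries, and to 24.4 to 190 in overexpression GFP-positive and 266 to 1065 in overexpression GFP-negative libraries.

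Let-7 and miR-122 together made up 16.0 ± 2.68% of hairpin reads in knockdown GFP-positive and 1.66 ± 0.796% in knockdown GFP-negative libraries (SD, n = 3 each). Counted over the reads outside let-7 and miR-122, the 8 hairpins took 0.986 ± 0.0599% in knockdown GFP-positive and 1.28 ± 0.0396% in knockdown GFP-negative libraries. The log2 difference was -0.37 (SE 0.06), beside -0.60 (SE 0.07) for the share of all hairpin reads, and the libraries of that arm still did not overlap. For overexpression libraries the same share was 1.14 ± 0.278% in overexpression GFP-positive and 1.52 ± 0.333% in overexpression GFP-negative libraries, a log2 difference of -0.42 (SE 0.29 unpaired and 0.035 over the 3 pairs) with libraries that overlapped across pairs (SD, n = 3 in each group). The SE over pairs is again the spread of 3 ratios, which rest on 47, 10 and 19 GFP-positive reads. Whether let-7, miR-122 or the other marker lists have a part in the lower level of the 8 hairpins was not tested.

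Fitted one by one with limma over all 132 tested hairpins, the 8 hairpins all had log2 differences below 0 in the knockdown arm, between -1.39 (gga-mir-20a) and -0.17 (gga-mir-17). Their median was -0.69, beside -0.17 over the 132 hairpins, of which 62.9% were below 0. None of the 8 passed an adjusted p of 0.05 (Benjamini-Hochberg over all 132), and none had an unadjusted p under 0.05. Of all hairpins 0.758% were called lower in this arm and 6.82% were lower at an unadjusted p under 0.05. edgeR and DESeq2 on the recovered reads each called 1 of the 8 lower, gga-mir-20a, where they called 3.03% and 9.85% of all hairpins lower.

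In the overexpression arm all 8 were again below 0, between -3.90 (gga-mir-17) and -0.07 (gga-mir-19b). Their median was -1.51 beside -0.67 over all hairpins, of which 67.4% were below 0. One of the 8 was called by limma, gga-mir-17, where 9.85% of all hairpins were called lower. With the replicate number as a block, gga-mir-20a was called as well, 2 of the 8 where 15.9% of all hairpins were called lower. Set against the median of all hairpins, 7 of the 8 lay below it in each arm. Under the other scalings the median of all hairpins moved from -0.17 to between -0.47 and -0.04 in the knockdown arm and from -0.67 to between -0.59 and -0.30 in the overexpression arm. The number of the 8 below that median was then 8 in the knockdown and 7 in the overexpression arm.

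**Figure D2:**
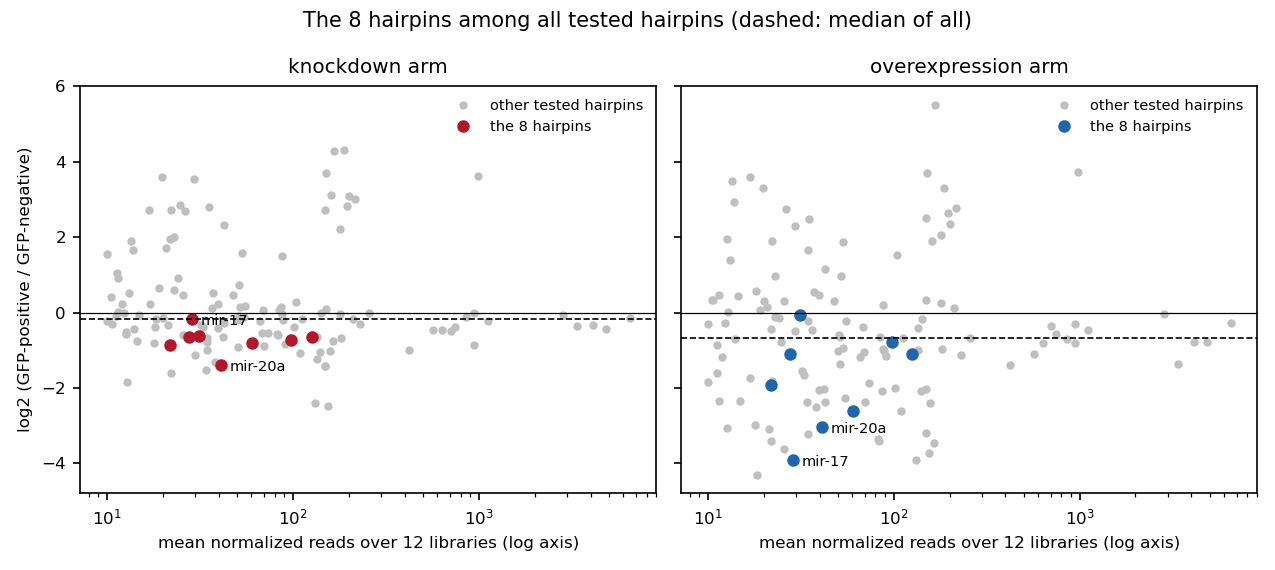
Log2 difference of GFP-positive over GFP-negative cells (limma, pseudocount 1) against the mean level over 12 libraries (log axis) for the 132 tested hairpins, knockdown arm left and overexpression arm right. The 8 hairpins are coloured, the dashed line is the median of all, and 7 of the 8 lie below it in each arm.

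Counted without a model, 4 of the 8 had all 3 GFP-positive libraries below all 3 GFP-negative ones in the knockdown arm (gga-mir-18a, gga-mir-19b, gga-mir-20a and gga-mir-20b), where 26.5% of all hairpins did. Across the overexpression arm it was again 4 of 8 (gga-mir-17, gga-mir-20a, gga-mir-20b and gga-mir-106), where 22% of all hairpins did, though gga-mir-17, gga-mir-20a and gga-mir-20b each had at least 1 GFP-positive library without a read. The hairpins that separated in both arms were gga-mir-20a and gga-mir-20b. Within libraries of the same replicate number the GFP-positive value was the lower one in 21 of 24 comparisons in the knockdown arm and in 20 of 24 in the overexpression arm. These comparisons take the 8 hairpins over the same 3 pairs of libraries, so they are not independent. The like share over all hairpins was not counted. Of all fitted limma differences, 62.9% in the knockdown and 67.4% in the overexpression arm were below 0.

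**Figure D3:**
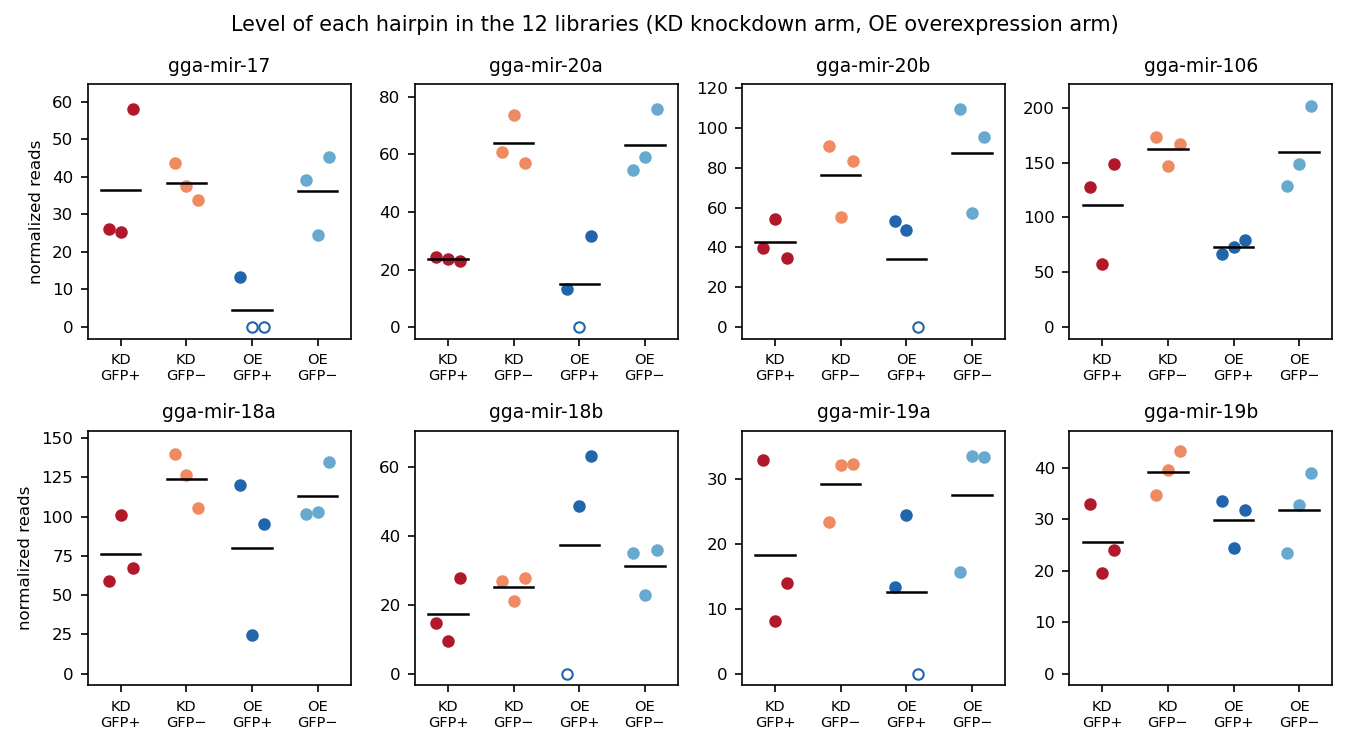
Level of each hairpin in normalized reads (linear axis) in the 12 libraries, by group, with 1 point per library, the group mean as a line and an open point where the library held no read. gga-mir-20a stays below 25 normalized reads in the 3 knockdown GFP-positive libraries and above 57 in the knockdown GFP-negative ones.

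Within the miR-17, miR-20 and miR-106 seed group, gga-mir-20a, of the chromosome 1 cluster, differed most in the knockdown arm. It stood at 24.3, 23.8 and 22.9 normalized reads in knockdown GFP-positive replicates 1 to 3, against 61.0, 73.7 and 57.0 in the knockdown GFP-negative ones. The 3 GFP-positive libraries were nearly level with each other and far below the others. The limma log2 difference was -1.39 (SE 0.998, adjusted p 0.531), with a 95% interval of -3.58 to 0.80. That standard error is shared with the overexpression GFP-positive libraries, in which gga-mir-20a rested on 4 reads. When only the 2 groups of the knockdown arm were fitted, the same difference had an SE of 0.28 and a limma adjusted p of 0.00696, in a fit that called 10.6% of hairpins lower. The adjusted p was 0.0319 with edgeR, 3.26e-05 with DESeq2 and 0.0289 with limma without overexpression GFP-positive replicate 2.

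In the overexpression arm gga-mir-20a stood at 13.4, 0 and 31.7 normalized reads in GFP-positive replicates 1 to 3, against 54.7, 59.0 and 75.8 in the GFP-negative ones. Every GFP-positive library was below every GFP-negative one, though with 4 reads in all and none in replicate 2, whose limit of 73.1 lies above 2 of the 3 GFP-negative values. Limma gave -3.03 (SE 0.998, adjusted p 0.0503), just short of the threshold, and an adjusted p of 0.0386 with the replicate block. Without GFP-positive replicate 1, 2 or 3 the limma adjusted p was 0.0415, 0.0187 and 0.00990, and the difference -3.47, -1.55 and -4.07. edgeR gave -1.96 (adjusted p 0.0235) and DESeq2 -2.03 (adjusted p 0.0408), and gga-mir-20a was the 1 member each called lower in this arm, where they called 11.4% and 12.1% of all hairpins lower. At the overexpression GFP-negative level, 16.0 reads would have fallen on gga-mir-20a in the 3 GFP-positive libraries. The ratio of the 4 observed reads to that number was 0.250, with an exact Poisson interval of 0.0680 to 0.639. That interval covers the counting error of the 4 reads only. It takes the GFP-negative level as exact, though overexpression GFP-negative replicate 1 held 14 reads of gga-mir-20a.

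gga-mir-17, the first-named miRNA of the cluster, differed least in the knockdown arm. It stood at 25.99, 25.2 and 58.0 normalized reads in knockdown GFP-positive libraries, against 43.6, 37.6 and 33.8 in the knockdown GFP-negative ones. Replicate 3 of the GFP-positive cells was the highest of the 6, and the groups overlapped. The limma log2 difference was -0.17 (SE 0.94, adjusted p 0.984), and edgeR gave 0.08. Its overexpression arm values were 13.4, 0 and 0 normalized reads in GFP-positive libraries, against 39.1, 24.6 and 45.2 in the GFP-negative ones. The limma difference of -3.90 (SE 0.94, adjusted p 0.0120) rests on 2 reads, and its size depends on the pseudocount, at -2.38 with 5 and -4.56 with 0.5. It was -5.18, -3.25 and -3.25 without overexpression GFP-positive replicate 1, 2 and 3.

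Those 2 reads compare with 9.20 at the overexpression GFP-negative level, a ratio of 0.217 with an exact Poisson interval of 0.0263 to 0.785. edgeR (adjusted p 0.0827) and DESeq2 (0.118) did not call gga-mir-17, nor did limma when only the 2 groups of the arm were fitted (0.126) or when overexpression GFP-negative replicate 3 was left out (0.0531). Without both libraries under 2000 reads, overexpression GFP-positive replicates 2 and 3, the difference was -1.33 (limma adjusted p 0.117), with the lone GFP-positive library taken to vary like the other groups. The limits of 73.1 and 47.6 normalized reads for those 2 libraries lie above all 3 GFP-negative values, so at this depth a zero in them does not separate the groups.

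gga-mir-20b and gga-mir-106 are the members of this seed group on chromosome 4. gga-mir-20b stood at 39.9, 54.2 and 34.6 normalized reads in knockdown GFP-positive libraries, against 90.8, 55.4 and 83.1 in the knockdown GFP-negative ones. The groups came close at replicate 2 but did not overlap, and the limma difference was -0.81 (SE 1.21, adjusted p 0.891). Its overexpression arm values were 53.5, 48.7 and 0 in GFP-positive libraries, against 109, 57.3 and 95.5 in the GFP-negative ones, with 10 reads in the GFP-positive group. That difference was -2.61 (SE 1.21, adjusted p 0.130), and it was -0.65 without both libraries under 2000 reads, which takes out the library at 0.

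gga-mir-106 was the most abundant of the 8, averaging 126.4 normalized reads over the 12 libraries and ranking 41st of all hairpins. It stood at 127, 57.1 and 148 normalized reads in knockdown GFP-positive libraries, against 173, 147 and 167 in the knockdown GFP-negative ones. GFP-positive replicate 3 lay just above the lowest GFP-negative value, and the limma difference was -0.65 (SE 0.38, adjusted p 0.397). With overexpression constructs it stood at 66.8, 73.1 and 79.3 in GFP-positive libraries, against 129, 148 and 201 in the GFP-negative ones. The groups did not overlap, with a read in every library. The GFP-positive group held 18 reads, as 10, 3 and 5 in replicates 1 to 3, so each of these levels has a wide counting error. The limma difference was -1.09 (SE 0.38, adjusted p 0.0555), and it passed the threshold without knockdown GFP-positive replicate 2 (adjusted p 0.0205). edgeR and DESeq2 gave adjusted p values of 0.0828 and 0.0875. Against 40.5 reads at the overexpression GFP-negative level, the 18 reads make a ratio of 0.445 (exact Poisson interval 0.264 to 0.703).

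The miR-18 hairpins did not separate by GFP in the overexpression arm. gga-mir-18a, second in abundance, stood at 58.9, 101 and 67.5 normalized reads in knockdown GFP-positive libraries, against 140, 127 and 105 in the knockdown GFP-negative ones. All 3 GFP-positive libraries were below the GFP-negative ones, though GFP-positive replicate 2 came close to GFP-negative replicate 3, and the limma difference was -0.73 (SE 0.53, adjusted p 0.531). With overexpression constructs it stood at 120.3, 24.4 and 95.2 in GFP-positive libraries, against 102, 103 and 135 in the GFP-negative ones. The groups overlapped, and the difference was -0.77 (SE 0.53, adjusted p 0.294). Its 25 reads against 28.7 at the GFP-negative level make a ratio of 0.870 (exact Poisson interval 0.563 to 1.28).

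gga-mir-18b, of the chromosome 4 cluster, was among the least abundant. It stood at 14.7, 9.51 and 27.9 normalized reads in knockdown GFP-positive libraries, against 27.0, 21.1 and 27.9 in the knockdown GFP-negative ones, with replicates 3 nearly equal. The overexpression arm held 0, 48.7 and 63.4 in GFP-positive libraries, against 35.2, 22.9 and 35.9 in the GFP-negative ones, so replicates 2 and 3 were above every GFP-negative library and replicate 1 was at 0. The means were 37.4 ± 33.2 in overexpression GFP-positive and 31.3 ± 7.28 in overexpression GFP-negative libraries (SD, n = 3 each), so they differ in sign from the fitted log2 difference. The limma differences were -0.63 (adjusted p 0.932) in the knockdown and -1.11 (adjusted p 0.551) in the overexpression arm. The second one changed sign to 0.84 without overexpression GFP-positive replicate 1. It was -4.99 (limma adjusted p 0.00118) without the other 2 GFP-positive libraries, where 1 library with no gga-mir-18b read stood for the group and 16.7% of all hairpins were called lower.

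The miR-19 hairpins were low throughout. gga-mir-19a, the least abundant of the 8 at rank 102, stood at 32.9, 8.08 and 13.9 normalized reads in knockdown GFP-positive libraries, against 23.3, 32.1 and 32.4 in the knockdown GFP-negative ones. GFP-positive replicate 1 was the highest of the 6, and the limma difference was -0.85 (SE 1.058, adjusted p 0.840). The overexpression arm held 13.4, 24.4 and 0 in GFP-positive libraries, against 15.6, 33.6 and 33.4 in the GFP-negative ones, which is 3 reads against 6.99 at the GFP-negative level. The ratio was 0.429 with an exact Poisson interval of 0.0885 to 1.25, so no difference was detectable at this depth.

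gga-mir-19b stood at 32.9, 19.5 and 24.0 normalized reads in knockdown GFP-positive libraries, against 34.7, 39.5 and 43.3 in the knockdown GFP-negative ones. The groups did not overlap, and the limma difference was -0.63 (SE 0.45, adjusted p 0.531). The overexpression arm had 33.4, 24.4 and 31.7 in GFP-positive libraries, against 23.4, 32.8 and 39.0 in the GFP-negative ones. Here the values lay within each other's range. The limma difference was -0.07 (SE 0.45, adjusted p 0.906), its 95% interval ran from -1.05 to 0.91, and its sign changed with the scaling. gga-mir-19b-2 of the chromosome 4 cluster, which the naming rule leaves out for its copy number, averaged 25.3 ± 6.03 in knockdown GFP-positive and 43.3 ± 4.69 in knockdown GFP-negative libraries, and 32.1 ± 7.87 in overexpression GFP-positive and 37.9 ± 10.2 in overexpression GFP-negative libraries (SD, n = 3 each). Its limma differences were -0.77 (adjusted p 0.397) in the knockdown arm and -0.23 (adjusted p 0.731) in the overexpression arm.

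**Figure D4:**
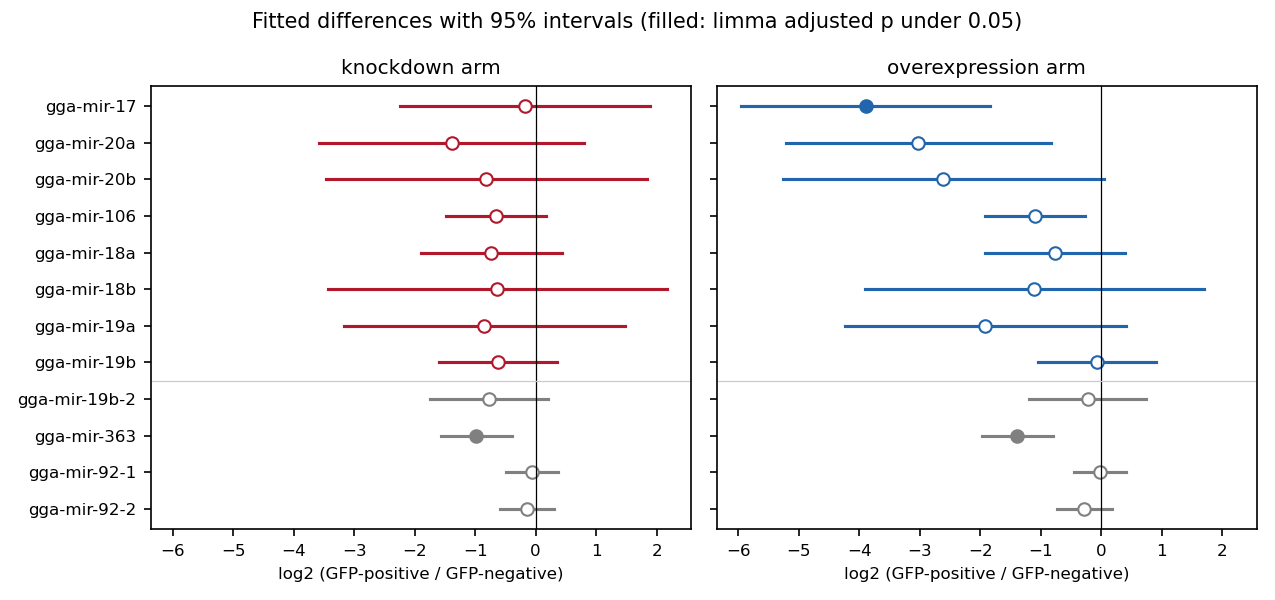
Limma log2 differences of GFP-positive over GFP-negative cells with 95% intervals, knockdown arm left and overexpression arm right. The 8 hairpins stand above the grey line and the cluster neighbours below it, and filled points passed an adjusted p of 0.05. Of the 8 only gga-mir-17 in the overexpression arm is filled, while gga-mir-363 is filled in both arms.

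Summed by seed group, the 3 groups had like differences in the knockdown arm. The miR-17, miR-20 and miR-106 hairpins averaged 214 ± 51.8 normalized reads in knockdown GFP-positive and 341 ± 27.5 in knockdown GFP-negative libraries, a log2 difference of -0.70 (SE 0.22). The miR-18 hairpins gave -0.69 (SE 0.20) and the miR-19 hairpins, whose libraries overlapped, -0.73 (SE 0.38). For overexpression libraries the miR-17, miR-20 and miR-106 hairpins averaged 127 ± 18.5 in GFP-positive and 346 ± 65.5 in GFP-negative libraries, a difference of -1.44 (SE 0.20), and the libraries did not overlap (SD, n = 3 in each group). There the miR-18 hairpins gave -0.36 (SE 0.35) and the miR-19 hairpins -0.46 (SE 0.34), both with overlapping libraries. Whether the seed groups differ from each other was not tested.

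Both clusters had lower sums in GFP-positive cells. The members on chromosome 1 averaged 180 ± 5.84 normalized reads in knockdown GFP-positive and 295 ± 20.1 in knockdown GFP-negative libraries, a log2 difference of -0.71 (SE 0.06). Those on chromosome 4 averaged 171 ± 46.0 in knockdown GFP-positive and 264 ± 35.8 in knockdown GFP-negative libraries, a difference of -0.65 (SE 0.27, SD over n = 3 in each group). Across the overexpression arm the differences were -1.04 (SE 0.45) for chromosome 1 and -0.94 (SE 0.21) for chromosome 4. The ratio of the chromosome 4 to the chromosome 1 sum was 1.04, 0.679 and 1.13 in knockdown GFP-positive libraries, against 0.961, 0.720 and 1.02 in the knockdown GFP-negative ones. It ran low in replicate 2 and high in replicate 3 of both groups. Overexpression libraries had a ratio of 0.621, 2.33 and 0.900 in GFP-positive libraries, against 1.17, 0.903 and 1.013 in the GFP-negative ones, with the widest values in the shallow libraries. The log2 difference of the ratio was 0.06 (SE 0.28) and 0.10 (SE 0.58) in the 2 arms.

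In knockdown GFP-negative libraries, the deepest, the order of the levels ran gga-mir-106 (162 ± 13.7), gga-mir-18a (124.1 ± 17.4), gga-mir-20b (76.5 ± 18.6), gga-mir-20a (63.9 ± 8.71), gga-mir-19b (39.2 ± 4.30), gga-mir-17 (38.4 ± 4.98), gga-mir-19a (29.3 ± 5.16) and gga-mir-18b (25.3 ± 3.68, normalized reads, SD, n = 3). The ranges of gga-mir-20b and gga-mir-20a overlapped there, as did those of gga-mir-19b and gga-mir-17 and those of gga-mir-19a and gga-mir-18b, while the other neighbours did not. In knockdown GFP-positive libraries gga-mir-106, gga-mir-18a and gga-mir-20b kept the first 3 places and gga-mir-20a was sixth, and of the neighbours only gga-mir-18a and gga-mir-20b did not overlap. Overexpression GFP-positive libraries had gga-mir-18a first and gga-mir-17 last, with overlap between all neighbours but gga-mir-106 and gga-mir-18b. Overexpression GFP-negative libraries had the same first 4 as knockdown GFP-negative ones, with overlap between all neighbours but gga-mir-20a and gga-mir-17. Hairpin levels are not divided by a length, so they order reads per hairpin.

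As a share of the reads of the 8 hairpins, gga-mir-20a took 6.84 ± 1.10% in knockdown GFP-positive and 11.5 ± 2.02% in knockdown GFP-negative libraries. gga-mir-17 took 10.1 ± 3.94% in knockdown GFP-positive and 6.85 ± 0.631% in knockdown GFP-negative libraries, and gga-mir-106 took 30.7 ± 10.1% in knockdown GFP-positive and 29.0 ± 1.40% in knockdown GFP-negative libraries. Across the overexpression arm gga-mir-20a took 4.93 ± 5.30% in GFP-positive and 11.5 ± 0.738% in GFP-negative libraries (SD, n = 3 in each group). The spread in the overexpression GFP-positive group came from libraries with 47, 10 and 19 reads over all 8 hairpins.

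**Figure D5:**
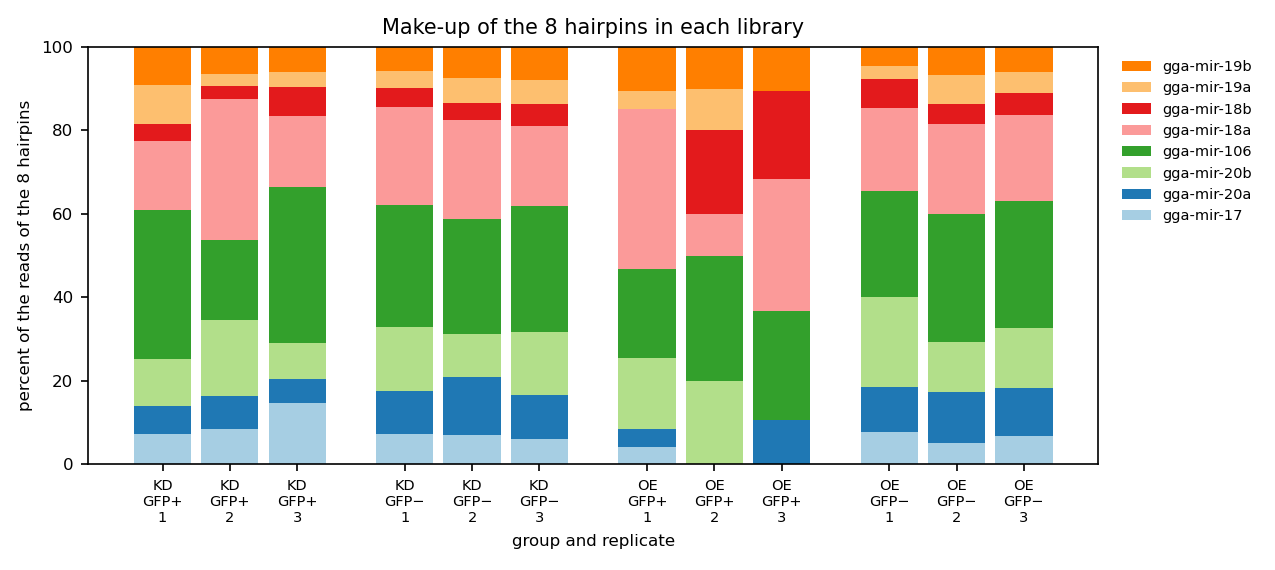
Share of each hairpin in the reads of the 8 hairpins, in percent, for each of the 12 libraries, stacked by seed group from miR-17 at the bottom to miR-19 at the top. The make-up is alike in the 6 GFP-negative libraries, gga-mir-20a is thinner in the knockdown GFP-positive ones, and the overexpression GFP-positive libraries vary most.

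The cluster neighbours outside the 8 did not all share the difference. Of the list of families miR-92, miR-363, miR-25 and miR-93, 3 hairpins were in the chicken-aligned table and tested. Of these, 1 was called lower in each arm and none higher, where 0.758% of all hairpins were called lower in the knockdown and 9.85% in the overexpression arm. gga-mir-363, at the other end of the chromosome 4 cluster from gga-mir-106, averaged 295 ± 53.9 normalized reads in knockdown GFP-positive and 578 ± 61.3 in knockdown GFP-negative libraries (SD, n = 3 each; limma -0.98, SE 0.27, adjusted p 0.0424). It averaged 227 ± 56.9 in overexpression GFP-positive and 592 ± 120 in overexpression GFP-negative libraries (limma -1.39, SE 0.27, adjusted p 0.00352). The knockdown call was lost with the replicate block (adjusted p 0.0912), with edgeR (0.0804), with no filter on low hairpins (0.289), with TMM or same-total scaling (0.136 and 0.137) and in 5 of the 6 limma fits that left out a knockdown library, all but GFP-positive replicate 2 (0.0801 to 0.160). The overexpression call was lost with same-total scaling (adjusted p 0.0571). gga-mir-92-2, second in abundance of all hairpins and next to gga-mir-363 on the chromosome, averaged 6048 ± 694 in knockdown GFP-positive and 6683 ± 965 in knockdown GFP-negative libraries, and 6002 ± 1030 in overexpression GFP-positive and 7310 ± 1354 in overexpression GFP-negative libraries. gga-mir-92-1 on chromosome 1 averaged 2472 ± 183 in knockdown GFP-positive and 2583 ± 388 in knockdown GFP-negative libraries, and 3160 ± 694 in overexpression GFP-positive and 3172 ± 140.0 in overexpression GFP-negative libraries (SD, n = 3 in each group). Neither chicken miR-92 hairpin was called in either arm, and their groups overlapped. In the human-aligned table hsa-mir-92b went the other way. Its limma differences were 0.97 (adjusted p 0.257) in the knockdown and 1.24 (adjusted p 0.0855) in the overexpression arm, where its groups were separate. hsa-mir-363 lay below 0 in both arms (limma -0.95, adjusted p 0.0747, and -1.50, adjusted p 0.00463). hsa-mir-25 and hsa-mir-93, untested, averaged 3.92 and 5.37 in knockdown GFP-positive and 0.290 and 0.513 in knockdown GFP-negative libraries.

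No difference between the GFP effects of the arms was called among the 8 hairpins. None passed limma's test of the difference between the overexpression and the knockdown effect (adjusted p), and none of all 132 hairpins did. edgeR and DESeq2 called none of the 8 either. The difference of the effects was -3.72 for gga-mir-17 (SE 1.33, adjusted p 0.670), the 1 of the 8 with an unadjusted p under 0.05, where 5.3% of all hairpins were lower at that level. It was -1.64 (SE 1.41, adjusted p 0.818) for gga-mir-20a. The effect of gga-mir-17 differed with an adjusted p of 0.00176 (limma) without overexpression GFP-positive replicate 1, which leaves the 2 libraries with no gga-mir-17 read.

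Between the GFP-negative groups, overexpression against knockdown, limma called no difference in the 8 hairpins. Their summed level averaged 550.3 ± 97.0 normalized reads in overexpression GFP-negative and 559 ± 31.2 in knockdown GFP-negative libraries (SD, n = 3 each). Each of the 8 overlapped between those groups, with log2 differences from -0.32 to 0.28. None was called by limma, edgeR or DESeq2, and none had an unadjusted limma p under 0.05. Limma called 0% of all hairpins in either direction, and the shares called by edgeR and DESeq2 are not given.

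By Pearson's r of the log2 level with the mean log2 level of the 8 over the 12 libraries, the most alike tested hairpins were gga-mir-363 (0.897), gga-mir-30d (0.897), gga-mir-218-1 (0.876), gga-mir-218-2 (0.872) and gga-mir-367 (0.867). The median over the other tested hairpins was 0.294. Over the 6 knockdown libraries alone, these r were 0.769, 0.851, 0.711, 0.689 and 0.480 in the same order. The libraries share groups and depths, so these r are descriptions of 12 libraries and carry no test.

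Among the 8 tested human hairpins, the human-aligned table, from the same 12 libraries, gave the same direction in the knockdown arm. All 8 tested human hairpins had log2 differences below 0, where 52.6% of all 114 hairpins did. Their median was -0.81 beside -0.06 over the 114. hsa-mir-106b, untested for its low level, went the other way, with 63 reads in the knockdown GFP-positive group. It stood at 13.6, 9.58 and 18.7 normalized reads in knockdown GFP-positive libraries, against 7.65, 5.08 and 3.56 in the knockdown GFP-negative ones. hsa-mir-18b, also untested, averaged 7.05 ± 7.78 in knockdown GFP-positive and 7.85 ± 0.912 in knockdown GFP-negative libraries (SD, n = 3 each). Of the 8, 5 separated by GFP (hsa-mir-17, hsa-mir-18a, hsa-mir-19b-1, hsa-mir-19b-2 and hsa-mir-20a), where 21.1% of all hairpins did. Limma called none of the 8, where 0% of all hairpins were called lower, and none had an unadjusted p under 0.05, where 3.51% of all hairpins were lower. DESeq2 called 2, hsa-mir-17 and hsa-mir-20a, and edgeR 1, hsa-mir-20a, where they called 11.4% and 7.89% of all hairpins lower. hsa-mir-20a averaged 16.5 ± 8.79 normalized reads in knockdown GFP-positive and 46.7 ± 5.28 in knockdown GFP-negative libraries (SD, n = 3 each), with a limma difference of -1.56 (SE 0.97, adjusted p 0.407; 0.0115 when only the 2 groups were fitted).

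The tables differed in separation by GFP for miR-17 and miR-20b in the knockdown arm and for miR-106 and miR-19b in the overexpression arm. hsa-mir-20b stood at 30.9, 48.9 and 20.7 normalized reads in knockdown GFP-positive libraries, against 69.7, 43.7 and 64.0 in the knockdown GFP-negative ones. Its groups overlapped where those of gga-mir-20b were separate. hsa-mir-17 stood at 36.3, 31.6 and 36.8 normalized reads in knockdown GFP-positive libraries, against 69.5, 50.6 and 67.5 in the knockdown GFP-negative ones, so its groups were separate where those of gga-mir-17 overlapped. hsa-mir-106a averaged 88.7 ± 18.4 in overexpression GFP-positive and 87.4 ± 24.8 in overexpression GFP-negative libraries (SD, n = 3 each), with overlap, where those of gga-mir-106 were separate. hsa-mir-19b-1 was higher in every overexpression GFP-positive library than in any GFP-negative one, on 7 reads, where gga-mir-19b overlapped. hsa-mir-17 took 2324 reads over the 12 libraries, 1.63 times the 1429 reads of gga-mir-17. Every other pair had fewer reads in the human-aligned table, with ratios from 0.325 (hsa-mir-18b to gga-mir-18b) to 0.987 (hsa-mir-19b-2 to gga-mir-19b-2).

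In the overexpression arm 6 of the 8 tested human hairpins were below 0, where 64.0% of all hairpins were. Limma called 2 of the 8, hsa-mir-20a (-3.15, SE 0.97, adjusted p 0.0458) and hsa-mir-20b (-4.30, SE 1.21, adjusted p 0.0365), where 11.4% of all hairpins were called lower. They rest on 2 and 5 reads in the GFP-positive group, against 10.02 and 14.1 at the GFP-negative level. The ratios were 0.200 (exact Poisson interval 0.0242 to 0.721) and 0.355 (0.115 to 0.828). Both calls were lost when only the 2 groups were fitted and under DESeq2. The count also fell to 0 in each fit that left out a single knockdown library or a single overexpression GFP-negative library. hsa-mir-17 stood at 23.6, 0 and 36.6 in overexpression GFP-positive libraries, against 47.9, 36.8 and 62.6 in the GFP-negative ones, a limma difference of -2.33 (SE 1.10, adjusted p 0.169).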

How the data were processed

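Small RNA libraries of sorted chicken embryo cells were processed by the submitters with FastQC 0.11.5, cutadapt and STAR 2.7.0f, per the submitters' processing notes, which name hg38. No chicken build, counting tool or scaling is given in these sources. The deposited values are a normalized signal per hairpin made by the authors, and within 0.001 reads every value was a whole number of reads divided by 1 factor per library, so reads were recovered. Among 911 chicken-aligned hairpin rows 61 repeated names were dropped (8 above 0), and among 1918 human-aligned rows 5. Another deposited sheet was not used.

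After adding a pseudocount of 1 and taking log2, hairpins averaging at least 10 (132 chicken and 114 human) went into a two-sided limma 3.58.1 fit in R 4.3.3 with a mean for each of 4 groups and trended empirical Bayes, with Benjamini-Hochberg adjustment over each table and calls at an adjusted p under 0.05. Recovered reads were also tested with DESeq2 1.42.0 and the quasi-likelihood test of edgeR 4.0.16, and the scripts were tested on simulated data. TMM scaling took the deepest library as its base, chosen after the data were seen because edgeR's default was the library of 1292 reads.

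Replicate numbers come from the sample titles. Deviations from group means correlated between same-numbered GFP-positive and GFP-negative libraries by 0.150, 0.379 and 0.144 in the knockdown and 0.207, 0.324 and 0.111 in the overexpression arm in the chicken-aligned table. All exceed 0.1, and on that basis the numbers were taken to pair the libraries. Libraries of different numbers correlated by -0.284 to 0.192 in the knockdown and -0.389 to 0.113 in the overexpression arm, which overlaps the same-numbered values. In the human-aligned table, made from the same libraries, same-numbered correlations ran from -0.139 to 0.360. The pairing is therefore an assumption, and the SEs over pairs rest on it. The members, the neighbour and marker lists and the tests were chosen with earlier results of these data known. The text names all members, the neighbour list and the 5 hairpins most alike by Pearson's r. Intervals and limits from reads cover counting error only, since reads carry no molecular identifiers here. The Poisson intervals of ratios take the GFP-negative level as exact, so they leave out its counting error and are too narrow. Of 850 chicken names 779 matched the RefSeq table, used only for names, chromosomes and order.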

Additional observations from a re-analysis of the deposited data

Results flagged for a closer look

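One hairpin separated in opposite directions in the arms. hsa-mir-19b-1 of the human-aligned table stood at 15.4, 15.3 and 13.4 normalized reads in knockdown GFP-positive libraries, against 26.8, 21.6 and 28.8 in the knockdown GFP-negative ones, and at 31.5, 38.7 and 36.6 in overexpression GFP-positive libraries, against 18.4, 30.5 and 24.5 in the overexpression GFP-negative ones. The overexpression GFP-positive values are 4, 1 and 2 reads, and against the 5.08 reads at the GFP-negative level they make a ratio of 1.38 with an exact Poisson interval of 0.554 to 2.84. The difference of the 2 GFP effects was 1.31 (SE 0.75, limma adjusted p 0.583), so the test of the difference did not pass. The chicken hairpin gga-mir-19b separated in the knockdown arm and overlapped in the overexpression arm.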

How the results depend on the processing

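Called members of the chicken-aligned table numbered 0 in the knockdown arm and 1 (gga-mir-20a) when only the compared groups were fitted, with edgeR, with DESeq2 and without both libraries under 2000 reads (an alternative chosen after seeing the data); leaving out 1 library at a time gave 0 to 1. In the overexpression arm the count of 1 became 2 with a pseudocount of 5, with TMM scaling, with the replicate block (gga-mir-17 and gga-mir-20a) and without both shallow libraries (gga-mir-18b and gga-mir-20a), and 0 with the compared groups only, and it ran from 0 to 2 over single left-out libraries. With edgeR and with DESeq2 it was 1, gga-mir-20a in place of gga-mir-17, and with a mean of at least 50 it was gga-mir-106. Of all hairpins, 9.85% were called lower in the main fit of this arm, 15.9% with the replicate block, 11.4% with edgeR and 12.1% with DESeq2. In both tables that share is not given for the other pseudocounts, filters and scalings or for left-out libraries. Counts under those settings are therefore not read as results about the members. The count for the difference of the effects went from 0 to 1 without both shallow libraries (gga-mir-18b) and from 0 to 1 over left-out libraries. Beside gga-mir-20a in the overexpression arm (adjusted p 0.0386, against 0.0503 without the block) and gga-mir-363 in the knockdown arm, the replicate block changed no other call among the 8 chicken members and the 3 cluster neighbours. In the human-aligned table, made from the same libraries, the block gave 1 call in place of 2 in the overexpression arm. There the knockdown count of 0 became 1 with the compared groups only, with edgeR and without both shallow libraries and 2 with DESeq2, and ran from 0 to 1 over left-out libraries. The overexpression count of 2 became 1 with a pseudocount of 0.5, with edgeR and without both shallow libraries, became 0 with no filter, a mean of at least 50, the same hairpin total, the compared groups only and DESeq2, and ran from 0 to 2 over left-out libraries.

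Signs turned for values that were not called. In the knockdown arm gga-mir-17 went to 0.08 with edgeR and to 0.01 and 0.03 without GFP-positive replicates 1 and 2 (from -0.56 to 0.03 over left-out libraries). In the overexpression arm gga-mir-19b went to 0.00 with TMM scaling, 0.30 with the same hairpin total, 0.04 with edgeR's default base (chosen after seeing the data), 0.06 and 0.09 without GFP-positive replicate 2 and GFP-negative replicate 3, and 0.10 without both shallow libraries (from -0.27 to 0.09 over left-out libraries). gga-mir-19b-2 went to 0.14 with the same total and 0.12 without the shallow libraries, gga-mir-18a to 0.10 without them, and gga-mir-18b to 0.84 without GFP-positive replicate 1 (from -2.17 to 0.84 over left-out libraries). The difference of the effects for gga-mir-18b went to 0.08 with a pseudocount of 5, 0.40 with edgeR, 0.45 with DESeq2 and 1.47 without overexpression GFP-positive replicate 1 (from -1.53 to 1.47 over left-out libraries). hsa-mir-106a, at 0.04 in the overexpression arm, went to -0.48 with TMM scaling and with edgeR, -0.05 with the default base, -0.02 with DESeq2, -0.03 and -0.11 without GFP-negative replicates 1 and 2, -0.13 without GFP-positive replicate 3 and -0.11 without the shallow libraries (from -0.13 to 0.26 over left-out libraries). hsa-mir-19a went to 0.32 without GFP-positive replicate 3 (from -2.33 to 0.32).

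The summed level in the knockdown arm was -0.99 with the default TMM base (chosen after seeing the data), in place of -0.68. The share outside let-7 and miR-122 (chosen after seeing the data) gave -0.37 in that arm, beside -0.60 for the share of all hairpin reads. In the overexpression arm the summed level was -0.56 with the same hairpin total, in place of -0.94. There the share outside let-7 and miR-122 gave -0.42, beside -0.56 for the share of all hairpin reads. The cluster ratio of that arm was -0.72 without both shallow libraries, in place of 0.10. The causes were not tested. Of 906 values recomputed in all, main values included, 807 kept their direction and their side of the threshold, or for values without a test stayed within their spread. The main values are among the 807 by definition, so that number does not give the share of alternatives that held. Of the others, 26 were reversed, 47 weaker and 26 stronger. Depth limits the overexpression GFP-positive group, where the 8 hairpins held 76 reads in all, against 139.6 at the GFP-negative level.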
